A study of Mus musculus with 6 samples.

Results

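Transcripts of 7 cytokine genes (Il15, Il27, Il12a, Il12b, Il6, Tnf and Il10) and of the receptor gene Il15ra were followed through 3 mouse cell lines with and without interferon-beta (IFN-β). The genes were taken by name, with earlier results of these data known, so shares over all genes are set beside them as a description. All 8 were measured, each by 1 probe set that names no other gene, out of 19938 genes measured in the series. The groups were L929 fibroblasts, NIH3T3 fibroblasts and RAW264.7 macrophages, each stimulated with IFN-β for 4 h, and the same lines unstimulated. No genotype or other agent is given for any group, and the sources used here give no dose of IFN-β. Each of the 6 groups was 1 array, so a change within a line has no error estimate, and the 3 lines stood in for replicates in the test of IFN-β. The series set out to find genes whose transcription IFN-β regulates.

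Type I interferons such as IFN-β bind the receptor IFNAR, and the signal reaches an element called the ISRE in the promoters of interferon-induced genes. The cytokines described here divide into several families. IL-15 sustains natural killer cells and memory CD8 T cells and is carried to the cell surface and presented there by IL-15Rα. IL-27 (Il27 with the partner chain Ebi3) and IL-12 (Il12a with Il12b) are pairs of chains made by antigen-presenting cells that steer T cells. IL-6 and TNF are inflammatory cytokines made by macrophages and, for IL-6, also by fibroblasts, and IL-10 restrains inflammation.

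RNA levels were read as log2 values, on which a difference of 1 is a doubling. With IFN-β the median of the log2 changes of all genes was -0.05 in L929, 0.17 in NIH3T3 and -0.03 in RAW264.7. The median log2 level over all genes was 5.49 in stimulated and 5.22 in unstimulated NIH3T3. Changes of the 8 genes in NIH3T3 are therefore also given after quantile normalization of the arrays. Marker lists separated the lines by their labels in the median, with exceptions among single markers. The median log2 level of 13 macrophage markers was 10.64 on the stimulated and 10.44 on the unstimulated RAW264.7 array, and between 3.86 and 4.28 on the fibroblast arrays. That of 11 fibroblast markers was 7.92 in stimulated and 8.57 in unstimulated L929, 10.67 and 10.56 in stimulated and unstimulated NIH3T3, and 4.66 and 4.69 in stimulated and unstimulated RAW264.7. Of the fibroblast markers, Thy1, Lox and Postn were low in L929 (log2 levels of 5.05, 3.05 and 3.29 stimulated, 4.96, 3.25 and 3.13 unstimulated), and S100a4 was also high in RAW264.7 (9.23 stimulated, 9.61 unstimulated). Postn was at 5.22 in stimulated and 5.12 in unstimulated NIH3T3. The macrophage marker Mpeg1 was at 8.09 in stimulated and 3.91 in unstimulated L929. Another macrophage marker, Aif1, was at 5.92 in stimulated and 5.22 in unstimulated RAW264.7. Lymphocyte, dendritic cell and epithelial marker lists had medians between 3.30 and 5.43 on every array.

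Promoter windows from RefSeq (build GRCm38.p6, 250 bases before to 50 after a start site) were available for 5 of the 8 genes, with 7 windows in all. Il15, Il27 and Il10 had none. Those of Il15ra are shown because its RNA rose with IFN-β, and that of Il6 because its change was the most unequal between the lines. The letters of the ISRE (GAAA, any 2 bases, GAAA) were in 0 of the 7 windows, against 3.44% of 32851 promoter windows, and those of the gamma-activated site or GAS (TTCNNNGAA) in 0 of 7, against 8.3%. Both strands were searched. A shorter interferon regulatory factor repeat (GAAANNGAA, which every ISRE match contains, and which was added after these windows had been read) was in both Il15ra windows and in 8.56% of all windows. AP-1 letters (TGANTCA, 7.81% of windows) were in the second Il15ra window and in the Il6 window. NF-κB letters (GGGA, any 2 bases, TTCC, 1.47% of windows) were in the Il6 window. A match describes letters and does not show that a factor binds there. The capitals below mark these matches, 5′ to 3′ on the plus strand in all 3 windows, at chr2:11705043-11705342, chr2:11705462-11705761 and chr5:30012864-30013163.
Il15ra, first window: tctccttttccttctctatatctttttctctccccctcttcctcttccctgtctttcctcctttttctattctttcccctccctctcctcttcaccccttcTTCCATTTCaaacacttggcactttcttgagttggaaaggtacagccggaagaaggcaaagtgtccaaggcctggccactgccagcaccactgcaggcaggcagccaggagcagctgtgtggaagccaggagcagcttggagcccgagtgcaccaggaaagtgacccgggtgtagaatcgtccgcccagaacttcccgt
Il15ra, second window: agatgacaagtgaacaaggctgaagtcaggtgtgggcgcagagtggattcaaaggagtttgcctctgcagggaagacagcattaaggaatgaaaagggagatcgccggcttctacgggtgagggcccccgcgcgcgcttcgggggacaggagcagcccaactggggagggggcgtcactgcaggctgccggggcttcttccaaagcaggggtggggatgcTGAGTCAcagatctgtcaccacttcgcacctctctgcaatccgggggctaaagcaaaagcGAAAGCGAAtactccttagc
Il6: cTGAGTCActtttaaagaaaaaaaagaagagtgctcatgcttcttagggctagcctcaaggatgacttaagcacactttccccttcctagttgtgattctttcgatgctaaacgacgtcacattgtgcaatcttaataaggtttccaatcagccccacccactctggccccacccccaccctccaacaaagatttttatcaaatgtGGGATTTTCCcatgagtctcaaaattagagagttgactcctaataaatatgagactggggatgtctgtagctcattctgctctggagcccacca

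Of the 8 genes, Il15 and Il15ra rose across the lines, and none passed the test as lower. In the test over the 3 pairs of arrays (limma, cell line as a block, adjusted p under 0.05 over all genes) 2 of 8 were called, against 0.732% of all genes. At an unadjusted p under 0.05, 5 of the 8 were higher and 0 lower in limma, and over all genes 838 were higher and 254 lower. Il15, Il15ra, Il27, Il6 and Tnf were higher in each of the 3 lines, as were 15.5% of all genes. The median of the 8 mean log2 changes was 0.50, against 0.03 over all genes. Counted within a line at 3-fold, the threshold of the series' design text, 3 of 8 were higher in L929 (0.893% of all genes), 0 in NIH3T3 (0.476%) and 1 in RAW264.7 (0.617%). The 3 in L929 were Il15, Il15ra and Il6, and the 1 in RAW264.7 was Il15. At 2-fold the counts were 3 in L929 (1.57%), 2 in NIH3T3 (1.73%) and 2 in RAW264.7 (1.14%). None of the 8 was 3-fold lower, against 0.01% of all genes in L929, 0.0401% in NIH3T3 and 0% in RAW264.7.

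**Figure D1:**
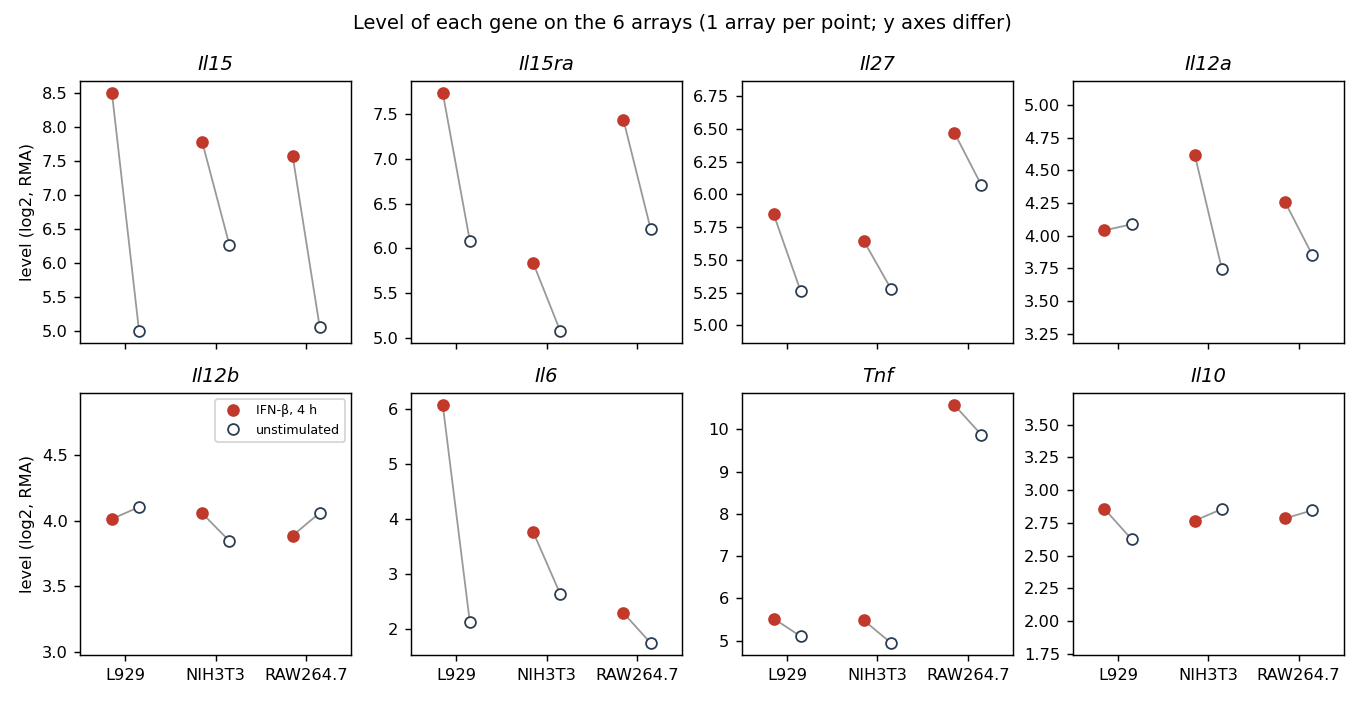
Log2 level (RMA, y axis) of each of the 8 genes on the 6 arrays, by cell line (x axis). Filled points are IFN-β for 4 h, open points unstimulated, 1 array each, joined within a line; y axes differ between genes. Il15 is higher on each stimulated array than on any unstimulated one, Tnf separates RAW264.7 from the fibroblast lines, and Il10 lies between 2.63 and 2.86 throughout.

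Il15 had the largest mean change of the 8 genes. Its log2 level was 8.50 in L929, 7.78 in NIH3T3 and 7.58 in RAW264.7 after IFN-β, against 4.998 in L929, 6.27 in NIH3T3 and 5.05 in RAW264.7 unstimulated. All 3 stimulated arrays lay above all 3 unstimulated ones. The gene was 11.4-fold higher in L929, 2.85-fold in NIH3T3 and 5.75-fold in RAW264.7. Ranked by change among the 19938 genes, it was at place 67 in L929, 102 in NIH3T3 and 60 in RAW264.7. The mean log2 change was 2.51 ± 0.30 (SE of limma, n = 3 lines, 95% interval 1.84 to 3.19), with a limma adjusted p of 0.00274, and the SD between the lines was 0.997. The call was lost with all probe sets tested together, annotated or not (adjusted p = 0.170), and without cell line in the model (0.698), as was that of Il15ra. Between lines, the widest differences in level were -0.93 for RAW264.7 minus L929 after IFN-β and -1.27 for L929 minus NIH3T3 unstimulated. In RNA from whole cultures, more cells with a transcript and more of it per cell cannot be told apart. In NIH3T3 the change stayed below 3-fold, and it was 1.54 on the log2 scale after quantile normalization.

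Il15ra, whose product binds IL-15 inside the cell and presents it, had a smaller change in the same order of lines. After IFN-β the log2 level was 7.74 in L929, 5.84 in NIH3T3 and 7.43 in RAW264.7, against 6.08 in L929, 5.08 in NIH3T3 and 6.22 in RAW264.7 unstimulated. The groups overlapped, because the stimulated NIH3T3 level was below the unstimulated levels of the other lines. The folds were 3.15 in L929, 1.70 in NIH3T3 and 2.32 in RAW264.7. The log2 change in NIH3T3, 0.76, was 0.52 after quantile normalization. The mean log2 change was 1.21 ± 0.20 (SE, n = 3 lines, 95% interval 0.77 to 1.65, SD between lines 0.45), with a limma adjusted p of 0.0189. The call depended on L929 and on how the arrays were scaled. Without L929 the limma adjusted p was 0.111, and after quantile normalization 0.123, with mean changes of 0.99 and 1.15. With each array centred on its median the call was kept (limma adjusted p = 0.0441, mean change 1.13). For both genes L929 had the largest change, NIH3T3 the smallest, and RAW264.7 one that differed from the mean of the fibroblast lines by 0.02 ± 0.49 for Il15 and 0.01 ± 0.49 for Il15ra (SE). The 95% intervals of these differences were -0.95 to 0.98 and -0.96 to 0.97. Their SE is 1 value for all genes and does not reflect the spread of these genes between the fibroblast lines. The change in L929 exceeded that in NIH3T3 by 1.99 for Il15 and 0.89 for Il15ra. A difference of more than 2-fold is therefore not excluded. The fibroblast mean lies between unequal lines: the RAW264.7 change minus that of L929 alone was -0.98 for Il15 and -0.44 for Il15ra, and minus that of NIH3T3 alone 1.01 and 0.45.

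**Figure D2:**
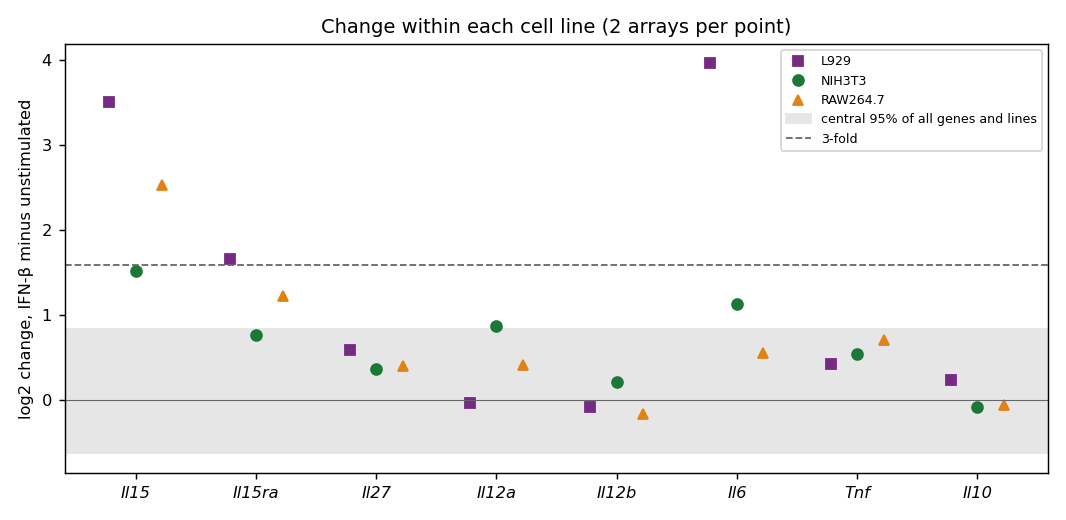
Log2 change with IFN-β (stimulated minus unstimulated, y axis) of each gene (x axis) in L929, NIH3T3 and RAW264.7, 1 pair of arrays per point. The grey band, -0.63 to 0.83, holds the central 95% of all genes and lines, and the dashed line is 3-fold. Il15 is above the band in all lines, while Il6 reaches 3.96 in L929 and 0.55 in RAW264.7.

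Il27, which encodes the p28 chain of IL-27, was slightly higher in each line and not called. Stimulated arrays had log2 levels of 5.85 in L929, 5.64 in NIH3T3 and 6.47 in RAW264.7, against 5.26 in L929, 5.28 in NIH3T3 and 6.07 in RAW264.7 unstimulated. The RAW264.7 levels were the highest, and the unstimulated RAW264.7 array lay above both stimulated fibroblast arrays. The mean log2 change was 0.45 ± 0.16 (SE, 95% interval 0.09 to 0.81, unadjusted p = 0.0187 and adjusted p = 0.675 in limma, higher in 3 of 3 lines). The changes of 0.59 in L929, 0.37 in NIH3T3 and 0.40 in RAW264.7 differed little, with an SD of 0.12. In NIH3T3 the change was 0.12 after quantile normalization. Ebi3, the partner chain, was at 6.39 in stimulated and 6.17 in unstimulated RAW264.7, and between 3.62 and 4.33 on the fibroblast arrays, with a mean log2 change of -0.13 (adjusted p = 0.967).

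The IL-12 chains showed no called change. Il12a, the p35 chain, had log2 levels of 4.04 in L929, 4.62 in NIH3T3 and 4.26 in RAW264.7 after IFN-β, against 4.09 in L929, 3.75 in NIH3T3 and 3.85 in RAW264.7 unstimulated. It was higher in NIH3T3 and RAW264.7, by 0.87 and 0.40, and differed by -0.046 in L929, with a mean of 0.41 ± 0.20 (SE, 95% interval -0.03 to 0.85, adjusted p = 0.955). That mean was 0.18 without NIH3T3 and 0.64 without L929. The NIH3T3 value was 0.54 after quantile normalization. Il12b, the p40 chain shared with IL-23, had log2 levels of 4.01 in L929, 4.06 in NIH3T3 and 3.89 in RAW264.7 after IFN-β, against 4.11 in L929, 3.85 in NIH3T3 and 4.06 in RAW264.7 unstimulated. Its levels spanned 0.26 over the 6 arrays, and the mean log2 change was -0.02 ± 0.17 (SE, 95% interval -0.39 to 0.35, adjusted p = 0.994), higher in 1 of 3 lines. In NIH3T3 the log2 change of Il12b, 0.21, was -0.092 after quantile normalization. Il23a, the IL-23 chain that pairs with Il12b, had log2 differences of -0.61 in L929, 0.69 in NIH3T3 and 0.06 in RAW264.7 and an adjusted p of 0.988.

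Il6 differed most in L929. With IFN-β the log2 level was 6.07 in L929, 3.76 in NIH3T3 and 2.29 in RAW264.7, against 2.11 in L929, 2.63 in NIH3T3 and 1.74 in RAW264.7 unstimulated. The stimulated L929 array stood 2.31 above the next highest, and stimulated RAW264.7 was below unstimulated NIH3T3. The gene was 15.6-fold higher in L929, place 53 of 19938 genes, 2.19-fold in NIH3T3 and 1.46-fold in RAW264.7. The log2 change in NIH3T3, 1.13, was 0.80 after quantile normalization. Among the genes of its array the Il6 signal stood at percentile 61.4 in stimulated L929 and 1.96 in unstimulated L929, and at 3.14 and 0.271 in stimulated and unstimulated RAW264.7. Such a percentile also depends on how brightly a probe set hybridises, and folds from so low a signal are approximate. Across the lines the mean log2 change was 1.88 ± 0.50 (SE, 95% interval 0.76 to 3.00), with an SD between lines of 1.83 and a limma adjusted p of 0.281. The mean was 0.84 without L929 (adjusted p = 0.274) and 2.25 without NIH3T3 (adjusted p = 0.382). Without RAW264.7 it was 2.55 and the adjusted p was 1.25e-16, in a fit with 1 residual degree of freedom that gave every gene the same variance.

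The response of Il6 in RAW264.7 was also set against that of the fibroblast lines in an interaction term, where 1 of the 8 genes was called as smaller, against 0.155% of all genes, and 0 of 8 as larger, against 0.0802%. The log2 change was 0.55 in RAW264.7 and 2.55 on average in the fibroblast lines, a difference of -2.00 ± 0.49 (SE, 95% interval -2.97 to -1.03, limma adjusted p = 0.0276). That fit had 1 residual degree of freedom and 1 variance for all genes, and RAW264.7 entered with 1 pair of arrays. The fibroblast lines were themselves unequal: the Il6 change in L929 exceeded that in NIH3T3 by 2.83, a difference that was not tested. The RAW264.7 change minus that of L929 alone was -3.41, and minus that of NIH3T3 alone -0.58, on the log2 scale. After quantile normalization the changes were 0.53 in RAW264.7 and 0.80 in NIH3T3, a narrower gap, from signals low on both of these lines' arrays. The call was lost with each array centred on its median or quantile normalized, with a trend and robust variances and with all probe sets tested together, where the adjusted p was 0.999 or above.

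Tnf, an inflammatory cytokine of macrophages, was high in RAW264.7 in both conditions. The stimulated log2 levels were 5.52 in L929, 5.48 in NIH3T3 and 10.58 in RAW264.7, against 5.10 in L929, 4.94 in NIH3T3 and 9.87 in RAW264.7 unstimulated. Stimulated RAW264.7 was 33.3-fold above stimulated L929 and 34.4-fold above stimulated NIH3T3, and unstimulated RAW264.7 was 27.4-fold above unstimulated L929 and 30.5-fold above unstimulated NIH3T3. The 13 macrophage markers described above separated the same lines. These differences between lines have no test, since each line had 1 array per condition. With IFN-β the level was higher in 3 of 3 lines, by 0.42 in L929, 0.53 in NIH3T3 and 0.71 in RAW264.7 on the log2 scale, with a mean of 0.55 ± 0.16 (SE, 95% interval 0.19 to 0.92, SD between lines 0.14). The unadjusted p was 0.00670 and the limma adjusted p 0.411. In NIH3T3 the change was 0.25 after quantile normalization. The difference between RAW264.7 and the fibroblast lines in this change was 0.23 (95% interval -0.74 to 1.20).

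Il10, the anti-inflammatory member, had low levels and no called change. Its log2 level was 2.86 in L929, 2.77 in NIH3T3 and 2.79 in RAW264.7 after IFN-β, against 2.63 in L929, 2.86 in NIH3T3 and 2.85 in RAW264.7 unstimulated. The 6 levels spanned 0.23, the smallest span of the 8 genes, and lay between percentiles 5.58 and 10.2 of the genes of their arrays. The mean log2 change was 0.03 ± 0.16 (SE, 95% interval -0.34 to 0.39, limma adjusted p = 0.990), and its sign turned with the scaling, to -0.052 with median centring and -0.090 after quantile normalization. In NIH3T3 the log2 change was -0.09 as deposited and -0.37 after quantile normalization.

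The receptors and signalling partners of these cytokines were compared next. Of 30 such genes 26 were measured, and limma called 0 as higher and 0 as lower. At an unadjusted p under 0.05 in limma, 3 were higher and 0 lower, against 838 higher and 254 lower of all 19938 genes. Over all genes 0.732% were called higher, so a list of this size would hold few calls at that share. None of the 26 was 3-fold higher or lower in any line, against 0.893% of all genes 3-fold higher in L929, 0.476% in NIH3T3 and 0.617% in RAW264.7. The median member differed by -0.22 in L929, 0.31 in NIH3T3 and 0.10 in RAW264.7 on the log2 scale. Among IL-15 receptor chains, Il2rb had log2 differences of 0.63 in L929, 0.10 in NIH3T3 and -0.14 in RAW264.7, and Il2rg was not analysed here. The IL-6 receptor Il6ra and its signal-transducing chain Il6st, which IL-27 also uses, had mean log2 changes of 0.04 and -0.09.

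Among the remaining receptors, Il10ra was at a log2 level of 6.77 in stimulated and 6.45 in unstimulated RAW264.7, and between 3.45 and 4.18 on the fibroblast arrays. Its partner Il10rb had a mean log2 change of -0.21, and the IL-27 receptor Il27ra one of -0.11. The IL-12 receptor chains Il12rb1 and Il12rb2 had mean changes of 0.02 and 0.17. The TNF receptors Tnfrsf1a and Tnfrsf1b had log2 changes of 0.19 and 0.40 in L929, -0.07 and 0.29 in NIH3T3, and 0.67 and 0.70 in RAW264.7, with adjusted p-values across lines of 0.964 and 0.706. For none of these receptors was the difference between RAW264.7 and the fibroblast lines called.

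Of 35 other interleukins and related cytokines 32 were measured, with 0 called in either direction in limma, against 0.732% of all genes called higher and 0% lower, a share at which a list of this size would hold few calls. At an unadjusted p under 0.05 in limma, 6 were higher and 1 lower, against 838 higher and 254 lower of all 19938 genes. The only member at 3-fold was Il18, a cytokine activated by inflammasomes. Its log2 level was 5.55 in L929, 4.72 in NIH3T3 and 8.21 in RAW264.7 after IFN-β, against 2.74 in L929, 4.41 in NIH3T3 and 6.53 in RAW264.7 unstimulated. The log2 change was 2.81 in L929, 0.31 in NIH3T3 and 1.68 in RAW264.7, with an adjusted p of 0.126. The unstimulated L929 signal stood at percentile 8.67 of its array, so the size of that change is approximate.

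Of 23 transcription factor and inhibitor genes known to act at cytokine promoters, 22 were measured and 5 rose in limma, against 0.732% of all genes. These were Irf7 (mean log2 change 3.96, adjusted p = 0.000545), Stat2 (3.13, adjusted p = 7.67e-05), Irf1 (2.49, adjusted p = 0.000655), Irf9 (2.22, adjusted p = 0.0293) and Irf2 (1.23, adjusted p = 0.0291). Irf9 changed less in RAW264.7 than in the fibroblast lines, by -2.32 (interaction adjusted p = 0.00189), a call lost with median centring or quantile normalization, where 0 genes passed. The unstimulated log2 level of Irf9 was 5.17 in L929, 4.74 in NIH3T3 and 7.58 in RAW264.7. After IFN-β it was 8.40 in L929, 7.49 in NIH3T3 and 8.26 in RAW264.7. Irf5 was 4.08-fold higher in L929, with log2 changes of -0.45 in NIH3T3 and 0.26 in RAW264.7 (adjusted p across lines 0.964). The median member of the list had a log2 change of 0.14 in L929, 0.32 in NIH3T3 and 0.27 in RAW264.7. The list includes interferon regulatory factors and was chosen with earlier results of these data known. Setting its calls against the share of all genes is thus a description and no test.

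**Figure D3:**
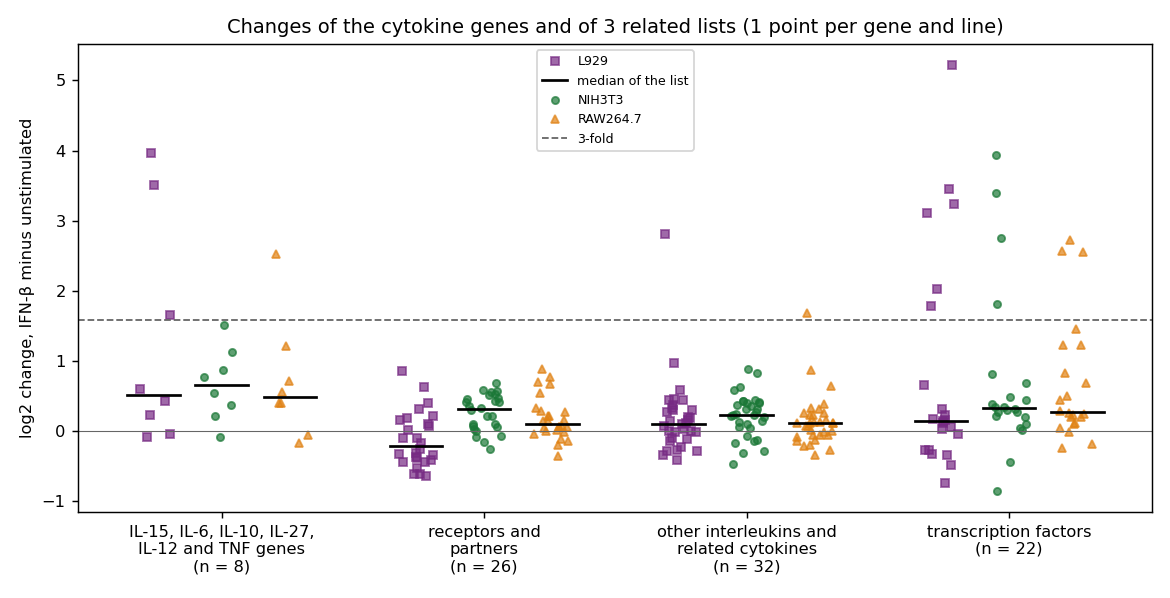
Log2 change with IFN-β (y axis) of the 8 genes and of 3 related lists (x axis), 1 point per gene and cell line, with the median of each list as a black bar and 3-fold as a dashed line. The 26 receptors and partners all lie below the 3-fold line. Above it lie Il15 and Il18 in L929 and RAW264.7, Il15ra and Il6 in L929, and several transcription factors.

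The 3 genes changed by at least 2-fold in some line were each compared with all other genes by the distance between their 3 within-line log2 changes. Closest to Il15 were Ifi203, a DNA-binding HIN-200 protein gene (distance 0.31), Parp11, an ADP-ribosyltransferase (0.40), and Irf1 (0.49). The Irf1 changes were 3.11 in L929, 1.80 in NIH3T3 and 2.56 in RAW264.7. Closest to Il15ra were Rnf19b, a ubiquitin ligase (0.08), Irf2 (0.16) and Mlkl, the effector of necroptosis (0.18). All 6 of these genes were called as higher across the lines. Closest to Il6 were Mpeg1, a pore-forming protein of macrophages and 1 of the 13 macrophage markers above (0.56), Gm4841 (0.58) and Tmem229b (0.89), with changes in L929 of 4.18, 3.63 and 3.72. None of these 3 was called across the lines, with adjusted p-values of 0.454, 0.186 and 0.0664. The calls are computed from the same 3 changes as the distances, so whether a neighbour is called largely follows from its selection. Likeness was measured over 3 lines only and is a description.

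**Figure D4:**
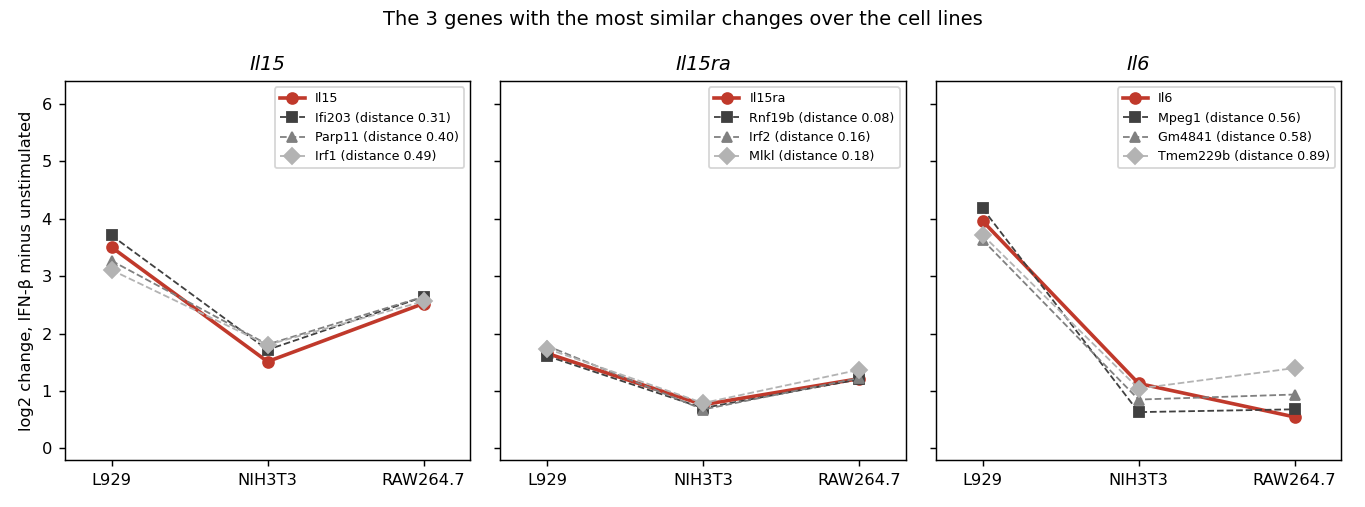
Log2 change with IFN-β (y axis) in each cell line (x axis) for Il15, Il15ra and Il6 (red) and for the 3 genes nearest to each by Euclidean distance over the 3 changes. Il15 and Il15ra peak in L929 with RAW264.7 above NIH3T3, and Il6 and its neighbours are high in L929.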

How the data were processed

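Total RNA of 3 mouse cell lines, each with and without 4 h of IFN-β, was hybridised to 1 Affymetrix array per group. The deposited values are log2 levels per probe set that the authors made with RMA, per the submitters' processing notes (version and settings not given in the sources used here). Their range, as RMA gives on that scale, sets the log base. Array medians ran from 4.72 to 4.82, and 5.05 for stimulated NIH3T3.

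Of 35557 probe sets, 21789 name 1 gene, 1621 several and 12147 none. For each gene the single-gene probe set with the highest mean was kept (19938 genes), with no filter on low levels. Symbols were checked by Entrez ID (91 probe sets had no match). The fits were made in R 4.3.3 with limma 3.58.1, for cell line plus treatment (2 residual degrees of freedom, prior 7.87), and an interaction of treatment with RAW264.7 (1 residual degree of freedom), with Benjamini-Hochberg adjustment over all genes. Stimulated and unstimulated arrays pair by the cell line they share. Limma draws each gene's variance toward that of all genes, so the SE of a gene with unequal responses understates its spread. Both fits were also run on simulated data. There the lines differed in response only by the change under test, so unequal responses such as those of Il6 were not covered. The labels do not say that arrays came from separate cultures, so p-values across lines measure only the spread between these lines. Interaction p-values use 1 variance for all genes, from the spread between the fibroblast lines, with none from RAW264.7. Changes within a line have no test. Other steps used Python 3.11.15 (pandas 2.3.3, numpy 2.4.6) and figures matplotlib 3.10.9.

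The genes and lists were chosen with earlier results of these data known. The rule named all 8 genes; in the lists, entries called across lines or at 3-fold in a line, and receptors or chains that pair with a cytokine; and the 3 nearest genes of each cytokine gene changed 2-fold. Genes in the last part of the closing section were chosen after their values were seen. Alternatives covered the probe set per gene, all probe sets, a filter on levels, centring, quantile normalization, variance estimation, the block, each line left out, and other thresholds.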

Additional observations from a re-analysis of the deposited data

Results flagged for a closer look

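The IFN-β response of Il6 differed between the macrophage line and the fibroblast lines by the interaction term. Its log2 change was 0.55 in RAW264.7, against 3.96 in L929 and 1.13 in NIH3T3, a difference of -2.00 from the fibroblast mean (limma adjusted p = 0.0276). L929 carried most of this difference: the RAW264.7 change minus that of NIH3T3 alone was -0.58, and after quantile normalization the changes were 0.53 in RAW264.7 and 0.80 in NIH3T3, from low signals. Over 5 alternatives the limma adjusted p ran from 0.0251 to above 0.999, and 1 of them kept the call. That was the mean over probe sets, which leaves the values of Il6, a gene with 1 probe set, unchanged.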

How the results depend on the processing

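The call of Il15 across the lines was kept in 8 of 10 alternatives, with mean log2 changes from 2.02 to 3.02. That of Il15ra was kept in 6 of 10, with 0.99 to 1.44. Among those kept is the mean over probe sets, which leaves the values of these genes, with 1 probe set each, unchanged. Across lines 14 genes and 0 of the 8 genes passed with all probe sets tested together (Il15 adjusted p = 0.170, Il15ra 0.283). Without the cell line as the replicate block 2 genes and 0 of the 8 passed (adjusted p of Il15 0.698, Il15ra above 0.999). After quantile normalization 1 of the 8 passed. With each line left out in turn, between 116 genes (without L929) and 223 (without RAW264.7) and between 1 and 3 of the 8 passed. Of the 8, 1 passed without L929 and 3 without RAW264.7, where Il6 joined.

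For the RAW264.7 difference, 4 genes passed with all probe sets tested together, and 0 with median centring and 0 with quantile normalization, against 47 as deposited (100 larger and 218 smaller at an unadjusted p under 0.05 in limma). Of the 8 genes 0 passed in these settings, 0 with a trend and robust variances and 0 with the lower-level genes left out, a setting that drops Il6. At 2-fold 2 of the 8 were higher in NIH3T3 (Il15 and Il6) and 2 in RAW264.7 (Il15 and Il15ra).

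Signs turned for uncalled values. Across lines these were Il12b, which ran from -0.132 to 0.060 with a line left out, and Il10, which ran from -0.074 to 0.085 with a line left out and was -0.052 with median centring and -0.090 with quantile normalization. In the RAW264.7 difference they were, after quantile normalization, Il15 (-0.216), Il15ra (-0.067), Il12a (0.214) and Il10 (0.047), and with median centring Il27 (0.085), Il12a (0.150) and Il10 (0.029). Against 1 fibroblast line in place of both, untested, the difference turned for Il15 (-0.98), Il15ra (-0.44) and Il12a (0.45) against L929, and for Il27 (0.036) and Il10 (0.028) against NIH3T3. Within NIH3T3, Il12b was -0.092 after quantile normalization and -0.060 with median centring. The number of arrays limits every value, and Il6, Il10, Il12a and Il12b had low signals on most arrays. The causes of these shifts were not tested.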

Other observations

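Some genes of the lists had their largest change in RAW264.7 without being called. Ltb, which encodes a membrane-bound relative of TNF, was at a log2 level of 9.56 in stimulated and 8.79 in unstimulated RAW264.7, a change of 0.77, and between 4.82 and 5.27 on the fibroblast arrays. Irf8, a transcription factor of macrophages, had log2 changes of 0.15 in L929, 0.27 in NIH3T3 and 1.22 in RAW264.7 (adjusted p of the RAW264.7 difference above 0.999). Atf3, a stress-induced transcription factor, had log2 changes of 0.65 in L929, 0.19 in NIH3T3 and 1.45 in RAW264.7. Il7, a lymphocyte growth factor, had a log2 level of 5.47 in stimulated and 5.03 in unstimulated L929. Its largest log2 difference with IFN-β was 0.87, in RAW264.7 (limma adjusted p across lines 0.542). There the levels were lower, 3.84 stimulated and 2.97 unstimulated, at percentiles 26.8 and 11.7 of the genes of their arrays. The size of that change is therefore approximate.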
